A study of Mus musculus with 10 samples.

Results

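Cytosolic ribosomal protein genes encode the proteins of the ribosome, and they were followed here across GFP-positive cells sorted from mouse brain. The family was picked with earlier results of these data known. Membership followed name and type: protein-coding genes whose symbol is Rpl or Rps followed by a number, together with Rplp0, Rplp1, Rplp2 and Rpsa. The rule took 84 of the 55487 genes in the deposited table. Of these, 77 were canonical ribosomal protein genes, 31 of the small and 46 of the large subunit, and 7 were gene copies (paralogs). The 7 copies and 6 further copies that share the naming but are not typed as protein-coding, among them Rps3a2 and Rps3a3, are described apart.

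The 10 libraries fell into 3 groups, each named as labelled. NC-GFP (n = 3) came from CamKIIcre/- mice given AAV-FLEX-GFP, an adeno-associated virus whose GFP is expressed only after Cre recombination. TDP-43cKO-GFP (n = 3) came from TDP-43flox/flox::CamKIIcre/- mice given the same virus, in which Cre removes the loxP-flanked part of Tardbp, the gene of the RNA-binding protein TDP-43. TDP-43cKO-TDP-43mNLS (n = 4) came from TDP-43flox/flox::CamKIIcre/- mice given AAV-FLEX-TDP-43mNLS-GFP. All 3 groups thus carried the Cre driver, which is active in forebrain excitatory neurons, and all received a virus in the dentate gyrus of the hippocampus and were sorted 1 month later. The first comparison below thus changes the genotype, the second the virus, and the third, the mNLS group against NC-GFP, changes both. Each library pooled 3 to 4 animals, and the p-values therefore describe variation among pools. In bulk samples fewer cells of a type and less RNA per cell cannot be told apart.

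Each ribosome carries 1 copy of nearly every one of these proteins, and cells make them in matched amounts, largely by controlling translation of the mRNAs. Those mRNAs start with a 5' terminal oligopyrimidine (TOP) tract, an unbroken run of C and T that lets mTOR signalling, through LARP1, switch their translation together. In neurons ribosomes are found in the cell body, in dendrites and in axons, and several ribosomal proteins have further roles, such as the binding of Mdm2 by free Rpl5 and Rpl11.

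The start-site stretches are shown for members whose levels are described below. TOP tracts are known from this family, and these members differ in the run of C and T near the annotated start. Each is 60 bases of the sense strand, 40 before and 20 from the RefSeq start (GRCm38.p6), and capitals mark the longest run of C and T that overlaps the 15 bases on either side of the start.
Rps18, chr17:33955646-33955705, minus strand: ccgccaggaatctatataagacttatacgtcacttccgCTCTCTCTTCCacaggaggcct
Rplp2, chr7:141447611-141447670, plus strand: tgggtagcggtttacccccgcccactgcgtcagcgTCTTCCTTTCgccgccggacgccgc
Rps6, chr4:86857348-86857407, minus strand: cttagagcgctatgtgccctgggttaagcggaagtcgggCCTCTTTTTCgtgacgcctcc
Rps9, chr7:3704001-3704060, plus strand: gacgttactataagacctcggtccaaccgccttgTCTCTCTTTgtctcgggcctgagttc
Rpl5, chr5:107900488-107900547, plus strand: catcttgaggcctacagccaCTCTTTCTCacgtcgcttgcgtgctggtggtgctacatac
Rplp0, chr5:115559427-115559486, plus strand: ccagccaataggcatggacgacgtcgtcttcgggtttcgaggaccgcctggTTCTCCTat
Rps4x, chrX:102189372-102189431, minus strand: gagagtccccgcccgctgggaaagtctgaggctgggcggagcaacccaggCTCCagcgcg
The first 5 hold a run of 9 to 11 letters, while Rplp0 holds 7 and Rps4x 4 near the annotated start. The marked run spans the annotated start in Rps18, Rplp2, Rps6 and Rps9. In Rpl5 it ends before the start, and in Rplp0 and Rps4x it begins after the start. A marked run is therefore not always a TOP tract. RefSeq start-site windows were matched for 57 of the 77 members. A C or T run of at least 8 letters near the start stood in 29 of the 57 (50.9%), against 20% of 27025 genes. The letters CCGGAAG, the core recognised by ETS-family factors, stood on either strand of the 300-base windows (250 before and 50 after the start) of 24 of the 57 (42.1%) and of 9.93% of all genes. AAGATGG, the core of the YY1 motif, was held by 9 members (15.8%) against 7.28% of genes, and TATAAA by 6 (10.5%) against 15.7%. These are letter matches, counted at every listed start, and do not show that a factor binds.

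Library totals lay between 17164162 and 29204279 estimated counts, and mitochondrially encoded genes held 10.9% to 16.5% of them. Tardbp, counted over the whole gene and so not only over its floxed part, stood at 143, 127 and 121 CPM (library-size-scaled counts, with TMM scaling factors) in NC-GFP and at 120, 122 and 108 in TDP-43cKO-GFP, with a log2 fold change of -0.16 (SE 0.205) that did not pass edgeR's test (adjusted p = 0.745). It was higher in the mNLS group, whose virus encodes TDP-43, at 206, 218, 337 and 185 CPM. Markers of neurons, the cells in which the driver is active, were low beside glial markers. The 10 neuron markers summed to 182 to 199 CPM in NC-GFP and 121 to 208 in TDP-43cKO-GFP. The 10 oligodendrocyte markers summed to 12455 to 18173 and 9154 to 17312 in these groups. Across the 4 mNLS libraries the oligodendrocyte markers ran from 5045 to 15784 CPM. In the mNLS group the neuron markers summed to 582 to 1688 CPM, the microglia markers to 2431 to 5830 against 5735 to 8434 in TDP-43cKO-GFP, the 10 blood markers to 14 to 46.4 against 237 to 753, and the 6 choroid plexus markers to 4498 to 10988 against 522 to 2526. The 10 astrocyte markers summed to 4335 to 5209 CPM in NC-GFP, 1243 to 2008 in TDP-43cKO-GFP and 2000 to 4744 in the mNLS group. In the first comparison below 7 of them fell, beside 1.1% of all genes called lower. Without TDP-43cKO-GFP replicate 3 only 2 of them were called lower. Every one of the 6 choroid plexus and 10 microglia markers had counts in every library. Of the blood markers, Alas2, Hba-a1, Hbb-bs, Hbb-bt, S100a8 and S100a9 were at 0 in 1 to 5 libraries, and of the neuron markers Slc17a7 was at 0 in 1. The part of cell makeup in the differences reported below was not tested.

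All 77 canonical members were detected in all 10 libraries and passed the low-count filter. Their share of all counts was 1.11%, 1.29% and 1.13% in NC-GFP, 1.48%, 1.28% and 2.04% in TDP-43cKO-GFP, and 0.911%, 1.13%, 0.958% and 1.14% in TDP-43cKO-TDP-43mNLS. Replicate 3 of TDP-43cKO-GFP stood above every other library, and the 4 mNLS libraries stood below all 3 TDP-43cKO-GFP libraries but overlapped NC-GFP. The group means were 1.18% ± 0.0954 (SD, n = 3), 1.60% ± 0.391 (n = 3) and 1.03% ± 0.117 (n = 4). The authors' TPM values, which are scaled per transcript length, gave the members 1.02% to 1.38% of the total in NC-GFP, 1.33% to 1.79% in TDP-43cKO-GFP and 0.892% to 1.39% in the mNLS group, and on that scale all 3 groups overlapped.

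The members differed widely in level and little in direction. By TPM, mean levels in NC-GFP ran from 30.1 for Rpl12 to 568 for Rplp1, a ratio of 18.9, with a median of 112. Rplp1 (568 ± 41.2 TPM, SD, n = 3), Rpl26 (484 ± 72.3) and Rplp2 (474 ± 56.9) were at the top. Their SDs overlap, so the order within this top group is not resolved. Rpl12 (30.1 ± 2.66), Rpl27 (34.5 ± 10.1) and Rpl10a (39.0 ± 5.94) were at the bottom. Rplp1 and Rplp2 are acidic proteins of the stalk, present as several copies in each ribosome, and Rpl12 anchors at the stalk base.

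**Figure D1:**
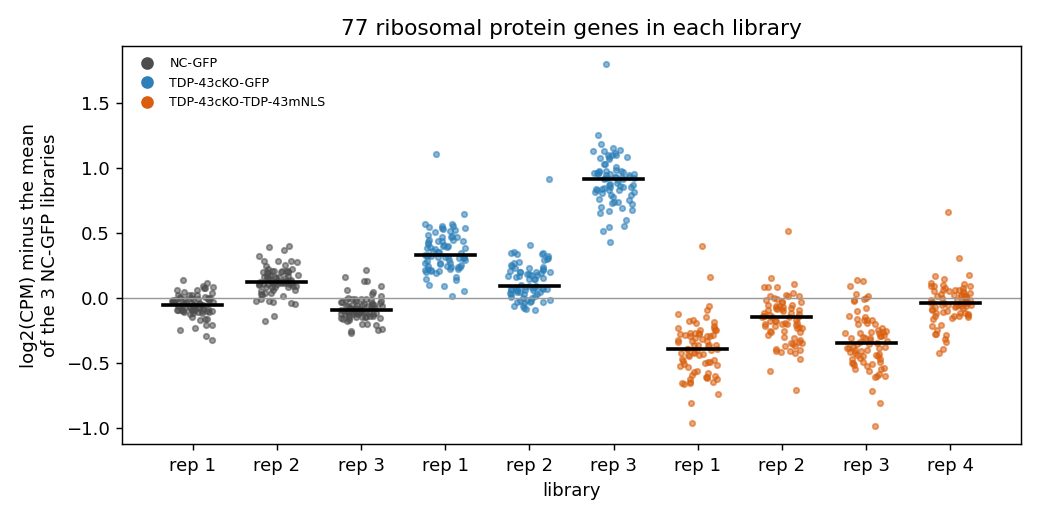
Each point is 1 of the 77 ribosomal protein genes in 1 library, as log2 CPM minus the mean log2 CPM of the 3 NC-GFP libraries (vertical axis), with the libraries along the horizontal axis coloured by group and a black bar at the median. The median lies at -0.05, 0.12 and -0.09 in NC-GFP and at 0.33, 0.10 and 0.92 in TDP-43cKO-GFP. In the mNLS group it lies between -0.39 and -0.04.

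Whole libraries moved as a block. Replicate 3 of TDP-43cKO-GFP was the highest of the 10 libraries for all 77 members. It stood above the mean of the other 2 libraries of its group by 0.32 to 0.87 on the log2 scale, with a median of 0.68, while the median over all tested genes was 0.03. The median member was 1.47 times its level in replicate 1 and 1.71 times that in replicate 2. At the other end, the lowest library was mNLS replicate 1 for 44 members, mNLS replicate 3 for 27, mNLS replicate 2 for 3 and NC-GFP replicate 3 for 3. Relative to NC-GFP, all 77 members lay above the mean of the controls in TDP-43cKO-GFP replicate 1, and 63 in replicate 2. Among the controls themselves, 16, 69 and 10 members lay above that mean in NC-GFP replicates 1, 2 and 3. By this count TDP-43cKO-GFP replicate 2 lay within the range of the controls.

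The balance of the 2 subunits stayed narrow. Small subunit genes made up 40.4% to 40.8% of the members' counts in NC-GFP, 40.1% to 40.9% in TDP-43cKO-GFP and 39.2% to 41.0% in the mNLS group, so the groups overlapped, while the members' share of all counts ran from 0.911% to 2.04%.

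The first comparison, TDP-43cKO-GFP against NC-GFP, asks what differs in the sorted cells of mice with the floxed Tardbp genotype. All 77 members had a log2 fold change above 0, against 53.4% of all genes tested, and the median was 0.49 against 0.04 over all genes. Only Rps3a1 rose by the test across all genes (edgeR's quasi-likelihood test, Benjamini-Hochberg adjusted p under 0.05), 1 of 77 members beside 0.53% of all 20379 genes called higher, 1.1% called lower and 1.63% called in either direction. At an unadjusted p under 0.05, 48 members (62.3%) were higher and 0 lower, beside 9.73% and 7.08% of all genes. In 28 members (36.4%) the 3 TDP-43cKO-GFP libraries all lay above the 3 NC-GFP libraries, beside 13.6% of all genes. Without TDP-43cKO-GFP replicate 3 the median was 0.20, 76 members were above 0 and 7 were higher at an unadjusted p under 0.05. DESeq2 called 7 members, limma voom 14, and edgeR 8 without TDP-43cKO-GFP replicate 2.

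Rpsa, the laminin-receptor protein of the small subunit head, stood at 424, 474 and 421 CPM in NC-GFP and at 635, 554 and 931 in TDP-43cKO-GFP. The groups did not overlap, and replicate 3 lay far above its partners. The log2 fold change was 0.68 (SE 0.198, adjusted p = 0.113), which did not pass. Rpl15, a large subunit protein that contacts 28S rRNA, stood at 83.3, 79.6 and 82.6 CPM in NC-GFP and at 128, 102 and 171 in TDP-43cKO-GFP, again with no overlap, at 0.71 (SE 0.175, adjusted p = 0.0692). Rpl26, which sits at the exit tunnel and binds p53 mRNA, stood at 298, 352 and 291 against 450, 398 and 687 CPM, at 0.71 (SE 0.203, adjusted p = 0.112). Rps20, of the small subunit head, had the largest value after Rps3a1, 0.74 (SE 0.235, adjusted p = 0.143), from 126, 157 and 127 CPM to 199, 160 and 325. The smallest values were those of Rpl5 (0.18, SE 0.189), Rps3 (0.23, SE 0.271) and Rpl12 (0.26, SE 0.205), whose libraries overlapped between the groups.

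The second comparison, TDP-43cKO-TDP-43mNLS against TDP-43cKO-GFP, asks what differs with the mNLS form of TDP-43 in mice of the floxed genotype. Here 63 of the 77 members fell and 0 rose, beside 7.13% of all tested genes called lower, 8.93% called higher and 16.1% called in either direction. The median log2 fold change was -0.72 against -0.01 over all genes, the range ran from -1.06 to -0.33, and 0 members were above 0, beside 49% of all genes. Of the small subunit genes 25 of 31 fell, with a median of -0.77, and of the large subunit genes 38 of 46, with a median of -0.69. In 62 members (80.5%) all 4 mNLS libraries lay below all 3 TDP-43cKO-GFP libraries, beside 12.4% of all genes, and in 0 they lay above, beside 13.3%. The count of calls rested on 1 library: without TDP-43cKO-GFP replicate 3 the members called fell from 63 to 3, among them Rplp0 and Rps4x, with a median of -0.41 and 50 members lower at an unadjusted p under 0.05, while 1178 genes in all were still called. Without TDP-43cKO-GFP replicate 1 it was 29 members, without mNLS replicate 3 it was 34 and without mNLS replicate 1 it was 38.

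**Figure D2:**
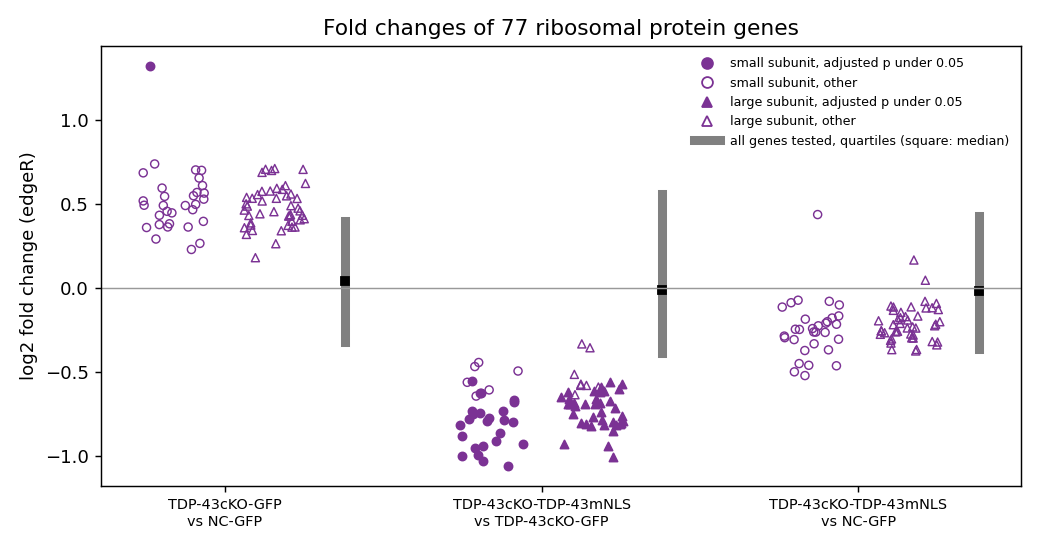
Log2 fold changes (vertical axis, edgeR) of the 77 ribosomal protein genes in the 3 comparisons (horizontal axis), circles for the small and triangles for the large subunit, filled where the adjusted p is under 0.05. Grey bars span the quartiles of all 20379 tested genes and black squares mark their median. Every member lies above 0 in the first comparison and below 0 in the second, where 63 are filled.

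Rps4x, the X-linked form of eS4, showed the largest fall, -1.06 (SE 0.215, adjusted p = 0.008). It stood at 240, 206 and 393 CPM in TDP-43cKO-GFP, 120, 138, 111 and 167 in the mNLS group, and 175, 199 and 176 in NC-GFP. The mNLS libraries of Rps4x lay below those of both other groups. Without TDP-43cKO-GFP replicate 3, Rps4x still fell (-0.68, adjusted p = 0.0417).

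Rps9, which takes part in decoding accuracy, went from 402, 303 and 601 CPM in TDP-43cKO-GFP to 184, 233, 202 and 254 in the mNLS group (-0.997, SE 0.216, adjusted p = 0.0108). Rps18, at the head of the small subunit facing the large one, went from 127, 108 and 178 CPM to 65.1, 68.3, 46.4 and 89.3 (-1.03, SE 0.228, adjusted p = 0.0118). Both fell and in both the groups did not overlap, but the adjusted p was above 0.05 without TDP-43cKO-GFP replicate 3, at 0.0637 and 0.0817. Rps7 and Rpl30 also fell, by 0.91 and 0.74 on the log2 scale.

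The stalk of the large subunit recruits the translation factors that hydrolyse GTP. Its core protein Rplp0 stood at 481, 407 and 719 CPM in TDP-43cKO-GFP and at 210, 282, 255 and 319 in the mNLS group, a fall with no overlap (log2 fold change -1.01, SE 0.208, adjusted p = 0.00874). It is 1 of the 3 members called without TDP-43cKO-GFP replicate 3, at -0.69 and an adjusted p of 0.0494. Rplp2 (-0.77, adjusted p = 0.0203) and Rplp1 (-0.69, adjusted p = 0.0394) fell as well, and Rpl12 at the stalk base did not pass (-0.59, SE 0.190, adjusted p = 0.0548).

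Rpl5 and Rpl11 travel with 5S rRNA and, when free, bind Mdm2, the ubiquitin ligase of p53, as does Rpl23. Rpl11 (log2 fold change -0.69, SE 0.162, adjusted p = 0.0153) and Rpl23 (-0.94, SE 0.210, adjusted p = 0.0121) fell. Rpl5 did not pass, at -0.36 (SE 0.176, adjusted p = 0.2). Its libraries stood at 158, 196 and 143 CPM in NC-GFP, 181, 161 and 221 in TDP-43cKO-GFP and 116, 156, 175 and 138 in the mNLS group, and these overlapped. The difference between Rpl5 and Rpl11 was not tested.

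Of the 8 proteins listed for the peptide exit tunnel, 7 fell, and Rpl35 did not pass (-0.58, SE 0.192, adjusted p = 0.0601). Among those that fell, Rpl26 stood at 450, 398 and 687 CPM in TDP-43cKO-GFP and at 274, 277, 278 and 330 in the mNLS group (-0.82, SE 0.188, adjusted p = 0.0136). Rpl4, whose long loop narrows the tunnel, fell by 0.82 (SE 0.196, adjusted p = 0.0167), and Rpl39, a small protein of the tunnel wall, by 0.69 (SE 0.207, adjusted p = 0.0412).

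Of the 8 proteins of the mRNA channel and decoding region, 5 fell, among them Rps2 (-0.79, adjusted p = 0.0154) and Rpsa (-0.77, adjusted p = 0.0155). Rpsa stood at 374, 447, 383 and 450 CPM in the mNLS group, below each TDP-43cKO-GFP library and overlapping NC-GFP. Rps26, which touches the mRNA just before the start codon, Rps28 and Rps3 did not pass (adjusted p = 0.0533, 0.102 and 0.27). Rps3, a protein of the mRNA entry with a further role in DNA repair, stood at 401, 649 and 456 CPM in NC-GFP, 571, 471 and 721 in TDP-43cKO-GFP, and 280, 521, 537 and 388 in the mNLS group. Its 3 groups overlapped.

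All 4 members listed for signalling and ubiquitin fell, beside 81.8% of all 77 members. They include Rps6, the substrate of the S6 kinases (-0.62, SE 0.174, adjusted p = 0.0315), and Rps27a, made as a fusion with ubiquitin (-0.62, SE 0.195, adjusted p = 0.0488). The others are Rps10 and Rps20, both ubiquitinated when ribosomes collide (-0.68, adjusted p = 0.0362, and -1.001, adjusted p = 0.0109). Rps6 stood at 152, 122 and 195 CPM in TDP-43cKO-GFP and at 77.8, 114, 101 and 112 in the mNLS group. Leaving out TDP-43cKO-GFP replicate 3 ended all 4 of these calls. The 14 members that were not called in this comparison were Rpl5, Rpl9, Rpl12, Rpl27, Rpl28, Rpl35, Rpl38, Rpl41, Rps3, Rps16, Rps21, Rps25, Rps26 and Rps28. Rpl41, a peptide that bridges the subunits, had the smallest fold change, -0.33 (SE 0.161, adjusted p = 0.191), at 273, 201 and 325 CPM in TDP-43cKO-GFP against 211, 209, 193 and 233.

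**Figure D3:**
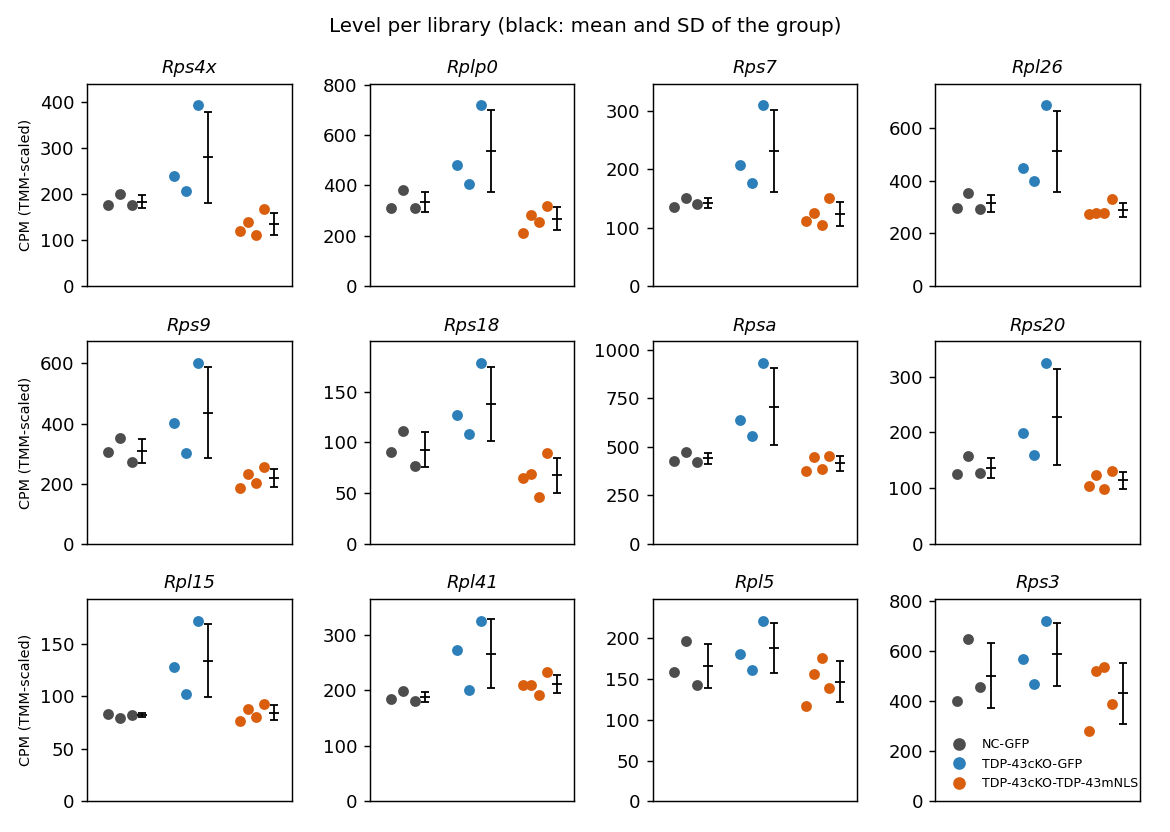
CPM per library (vertical axes from 0) of 12 members in the 3 groups, which stand left to right as NC-GFP, TDP-43cKO-GFP and TDP-43cKO-TDP-43mNLS, with the group mean and SD in black. Replicate 3 of TDP-43cKO-GFP is the highest library in every panel, and Rpl5 and Rps3 overlap across all 3 groups.

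In the third comparison, TDP-43cKO-TDP-43mNLS against NC-GFP, 0 of the 77 members were called, beside 3.25% of all genes called lower and 8.23% called higher by edgeR. The median was -0.24 against -0.02 over all genes, and 74 members were below 0. At an unadjusted p under 0.05, 4 members (5.19%) were lower and 0 higher, beside 10.3% and 14.8% of all genes, so that count is below the background. DESeq2 and limma voom also called 0. In 12 members (15.6%) all mNLS libraries lay below all NC-GFP libraries, beside 10.8% of all genes. Rps12, a small subunit protein that in flies takes part in cell competition, had the lowest value, -0.52 (SE 0.202, adjusted p = 0.125), from 78.5, 85.9 and 86.3 CPM to 43.0, 51.3, 59.5 and 78.9, where 1 library of each group overlapped. Rps9 (-0.50, adjusted p = 0.173), Rps18 (-0.46, adjusted p = 0.235) and Rpl30 (-0.37, adjusted p = 0.166) did not pass either. Only Rps3a1 (0.44), Rpl41 (0.17) and Rpl15 (0.04) were above 0.

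The members also moved alike among themselves. The SD of their log2 fold changes was 0.157, 0.151 and 0.138 in the 3 comparisons. The median SE of a single member was larger, at 0.207, 0.192 and 0.193. The SE also holds variation among libraries that the members share, and the SD across members does not. An SD below the SE thus does not by itself show a uniform response. Members with a C or T run of at least 8 letters near the start (n = 29) had a median of -0.705 in the second comparison. Those without (n = 28) had a median of -0.712. The quartiles were -0.787 to -0.625 and -0.82 to -0.598. This split is by letters near the start and does not sort members by TOP tract. The medians of the 38 members above the median TPM and of the 39 at or below it were -0.77 and -0.67. The median member had 1094 exonic bases, with members from 383 to 5179, and the median of other coding genes was 3436. In the second comparison the 39 members at or under the members' median length had a median of -0.69. The 38 longer members had a median of -0.76. Among the other 15129 coding genes tested, the median log2 fold change fell with length in the first comparison, from 0.35 in 597 genes under 1000 bases to -0.095 in 927 genes of 8000 or more. In the second it ran from -0.15 to 0.25. In both, the members' median (0.49 and -0.72) lay beyond that of the shortest class. TDP-43cKO-GFP replicate 3 exceeded the other libraries of its group by a median of 0.21 in that class against 0.68 in the members. The part of transcript length in these differences was not tested.

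Rps3a1 was the member that stood apart, and its values depend on its copies. Rps3a1 (chr3:86137940-86142702, minus strand, GRCm38) encodes a small subunit protein near the mRNA exit. Rps3a2 (chr14:88123017-88123808, minus strand) and Rps3a3 (chr13:108670603-108671397, plus strand) are typed as processed pseudogenes, intronless copies of its mRNA. Rps3a3 lies in an intron of Pde4d on the same strand in GENCODE M21, and Rps3a2 overlaps no other gene there. Over the coding sequence Rps3a2 differs from Rps3a1 at 4 of 792 bases (99.49% identity) and Rps3a3 at 9 of 795 (98.87%). Positions are counted from the A of the Rps3a1 start codon. Both copies carry T216C and T534C, Rps3a2 alone carries A645T and T668C, and Rps3a3 alone carries T260C, C363T, A427T, G582T, A660G, C762T and G792A. The 30-base windows below show where reads can be told apart, with capitals at the positions that differ.
Rps3a1, 202 to 231: gaagtgagccttgcTgatctacagaatgat
Rps3a2, 202 to 231: gaagtgagccttgcCgatctacagaatgat
Rps3a3, 202 to 231: gaagtgagccttgcCgatctacagaatgat
Rps3a1, 646 to 675: aaaatgctgaagaaAcccaagtTtgaattg
Rps3a2, 646 to 675: aaaatgctgaagaaAcccaagtCtgaattg
Rps3a3, 646 to 675: aaaatgctgaagaaGcccaagtTtgaattg
Of the 50-base stretches of the copies, 76.7% (Rps3a2) and 49.6% (Rps3a3) occur unchanged in Rps3a1, so many reads fit more than 1 of the 3 and their division rests on the authors' counting.

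Rps3a1 stood at 139, 146 and 122 CPM in NC-GFP, at 292, 255 and 471 in TDP-43cKO-GFP and at 178, 193, 149 and 214 in the mNLS group. The 3 NC-GFP libraries were the lowest 3 of the 10. It rose by 1.32 (SE 0.225, adjusted p = 0.0151) in the first comparison, fell in the second (-0.89, SE 0.206, adjusted p = 0.0144), and did not pass in the third (0.44, SE 0.209, adjusted p = 0.223). The first call was kept without TDP-43cKO-GFP replicate 3 (0.98, adjusted p = 0.0482), while leaving out any 1 of the 3 NC-GFP libraries ended it, with adjusted p at 0.0663, 0.0661 and 0.102 in the order of their numbers. The second was lost without TDP-43cKO-GFP replicate 3 (-0.52, adjusted p = 0.089).

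Rps3a3 went the other way and by far more. It stood at 42.0, 51.2 and 43.2 CPM in NC-GFP, at 1.86, 0.558 and 2.64 in TDP-43cKO-GFP and at 0.452 to 0.679 in the mNLS group. The log2 fold change was -4.75 (SE 0.438, adjusted p = 0.000987) in the first comparison, -1.60 (SE 0.408, adjusted p = 0.0218) in the second and -6.34 (SE 0.427, adjusted p = 7.36e-05) in the third. Without TDP-43cKO-GFP replicate 3 the second call was lost (-1.08, adjusted p = 0.146). The last 2 groups overlapped, since TDP-43cKO-GFP replicate 2 lay within the mNLS range. The counts behind the values in those groups were 12 to 67 per library, against 765 to 1337 in NC-GFP. Pde4d, whose intron holds Rps3a3, stood at 9.48 to 13.2 CPM in NC-GFP and 8.60 to 15.3 in TDP-43cKO-GFP (0.12, SE 0.255, adjusted p = 0.858). In the mNLS group Pde4d stood at 13.7 to 20.7 CPM, above every NC-GFP library. It did not pass in the third comparison (0.56, SE 0.241, adjusted p = 0.167). Rps3a2 stood at 44.7, 48.3 and 40.7 CPM in NC-GFP, 20.4, 13.2 and 30.5 in TDP-43cKO-GFP and 10.1, 8.47, 7.68 and 14.5 in the mNLS group. It fell in the second comparison, where 1 library of each group overlapped (-1.06, adjusted p = 0.0245), and the third (-2.13, adjusted p = 0.00105), not in the first (-1.06, SE 0.301, adjusted p = 0.108). Without TDP-43cKO-GFP replicate 3 the second call was lost as well (-0.67, adjusted p = 0.173).

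**Figure D4:**
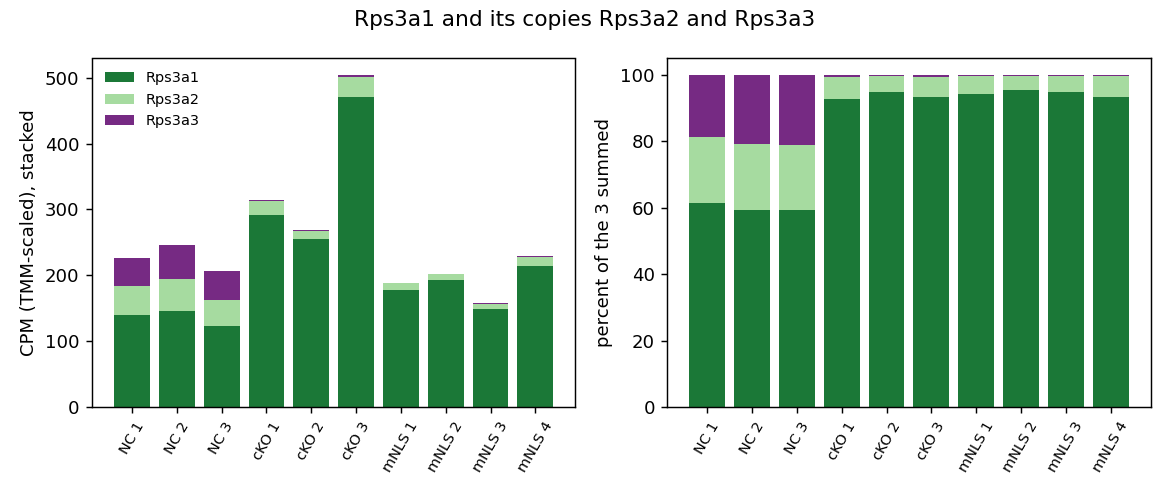
Stacked CPM (left panel) and percent of their sum (right panel) of Rps3a1, Rps3a2 and Rps3a3 in the 10 libraries (NC for NC-GFP, cKO for TDP-43cKO-GFP, mNLS for TDP-43cKO-TDP-43mNLS, with the replicate number). Rps3a1 holds 59.3% to 61.6% of the sum in NC-GFP and 92.9% to 95.5% in every library of the other groups.

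Of the summed CPM of the 3 genes, Rps3a1 held 60.1% ± 1.26 in NC-GFP (SD, n = 3), 93.7% ± 1.01 in TDP-43cKO-GFP (n = 3) and 94.5% ± 0.895 in the mNLS group (n = 4). The sum itself was 226, 245 and 206 CPM, then 314, 268 and 504, then 189, 202, 157 and 229. With the counts of named ribosomal protein pseudogenes added to their parent genes, Rps3a1 no longer passed the first comparison (0.68, SE 0.227, adjusted p = 0.156). The third turned from 0.44 to -0.22 (adjusted p = 0.587), and the second stayed at -0.90 (adjusted p = 0.0146). That addition was chosen after the data were seen.

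Among the other copies, Rpl36al, a copy of Rpl36a, stood at 39.7, 44.4 and 38.4 CPM in NC-GFP, 58.2, 55.2 and 102 in TDP-43cKO-GFP and 44.0, 41.2, 42.8 and 44.6 in the mNLS group. It fell in the second comparison (-0.74, SE 0.194, adjusted p = 0.0245), where Rpl36a also fell (-0.60, adjusted p = 0.0353), and the Rpl36al call was lost without TDP-43cKO-GFP replicate 3 (-0.34, adjusted p = 0.163). Rpl22l1, which in zebrafish blood development acts against its parent Rpl22, did not pass there (-0.59, SE 0.185, adjusted p = 0.0515). Rps27l, in human cells a p53 target, stood at 13.5 to 16.4 CPM in the mNLS group and 9.41 to 18.5 in TDP-43cKO-GFP and did not pass (0.09, SE 0.227, adjusted p = 0.826). In NC-GFP it stood at 8.99 to 10.4 CPM, below every mNLS library. The third comparison did not pass either (0.59, SE 0.231, adjusted p = 0.132). Per 100 CPM of its parent Rps27, Rps27l stood at 14.8 to 20.3 in NC-GFP and 16.5 to 24.6 in TDP-43cKO-GFP. In the mNLS group it stood at 29.7 to 44.4, a range that did not overlap the others. Rps27 itself fell in the second comparison (-0.74, SE 0.218, adjusted p = 0.0402), a call lost without TDP-43cKO-GFP replicate 3. Rpl36al per 100 CPM of Rpl36a stood at 104 to 112, 128 to 165 and 107 to 149 in the same order of groups. For Rpl22l1 per Rpl22 and Rps4l per Rps4x the mNLS range overlapped that of TDP-43cKO-GFP. Rpl7l1 did not pass in any comparison (0.13, -0.15 and -0.01), nor did the non-coding Rpl6l, Rpl32l, Rps12l1 and Rps4l. Rpl10l, Rpl39l and Rpl3l, known mainly from testis or muscle, had 0 to 27 counts a library and were not tested.

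Shared sequence reaches beyond Rps3a1. Between 0% and 85.5% (Rpl36a) of a member's 50-base stretches occur in other annotated transcripts, with a median of 35.8%. The 56 members with at most 50% had a median log2 fold change of -0.74 in the second comparison and the 21 others of -0.69. The 319 pseudogenes named after members took 0.129% to 0.343% of the counts, 13.5 to 16.8 per 100 member counts, and were highest in TDP-43cKO-GFP replicate 3.

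Other genes of translation were counted from lists. Rack1 and Fau are ribosomal proteins outside the naming rule. In the second comparison Rack1, a scaffold on the small subunit, (-1.02, SE 0.221, adjusted p = 0.0106) and Fau, a fusion that yields eS30 (-0.87, SE 0.178, adjusted p = 0.00837), fell. Both calls were lost without TDP-43cKO-GFP replicate 3 (-0.65, adjusted p = 0.0619, and -0.58, adjusted p = 0.0529). Of 20 elongation factors and other TOP mRNAs, 11 fell and 0 rose, with a median of -0.65, and without TDP-43cKO-GFP replicate 3 there were 2 calls and a median of -0.345. They include the poly(A)-binding protein gene Pabpc1, which stood at 754, 599 and 1024 CPM in TDP-43cKO-GFP and 395, 400, 382 and 472 in the mNLS group (-0.94, SE 0.185, adjusted p = 0.00686). Eif3f (-0.93, adjusted p = 0.00877) and Eef1b2 (-0.85, adjusted p = 0.013) fell too. Pabpc1 and Eif3f are the 2 called without that library (-0.66, adjusted p = 0.0392, and -0.57, adjusted p = 0.0461), and Eef1b2 was not (-0.53, adjusted p = 0.0879).

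The other lists had few calls in the second comparison, to be read beside the 7.13% of all genes called lower and 8.93% called higher. Of 25 initiation factors 2 fell, Eif3d and Eif6 (-0.56 and -0.76), with a median of -0.22. Of 35 ribosome biogenesis genes 3 fell, Tcof1, Utp3 and Wdr43, with a median of -0.13. Of 77 genes of the mitochondrial ribosome, which translates the mitochondrial genome, 1 fell (Mrpl52), with a median of -0.07, and of 10 ribosome quality control genes 0 passed (0 at an unadjusted p under 0.05). Of 17 genes around mTOR, LARP1 and MYC, 2 fell: Eif4ebp1, the 4E-BP1 brake on cap-dependent initiation (16.8, 7.25 and 24.99 CPM against 4.55, 5.05, 4.34 and 8.96, which overlapped, -1.51, adjusted p = 0.0218), and Myc (-0.76, adjusted p = 0.0416). Of 12 snoRNA host genes Snhg14 rose (2.89, adjusted p = 0.00188). Of 41 nuclear genes of oxidative phosphorylation 1 fell (Ndufa7) and 0 rose, with a median of 0.13, and in the third comparison 12 of them rose, beside 8.23% of all genes, led by Cox6c (0.73, adjusted p = 0.00343). Without TDP-43cKO-GFP replicate 3 every call named here in the second comparison was lost except that of Snhg14 (2.96, adjusted p = 0.0174). In the first comparison 0 genes of these lists were called by edgeR. At an unadjusted p under 0.05, 15 of the 20 TOP genes and 15 of the 41 oxidative phosphorylation genes were higher. Of all genes, 9.73% were higher at that threshold. Without TDP-43cKO-GFP replicate 3 the medians of these 2 lists in the first comparison were 0.28 and 0.20, against 0.007 over all genes. The differences between lists were not tested.

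**Figure D5:**
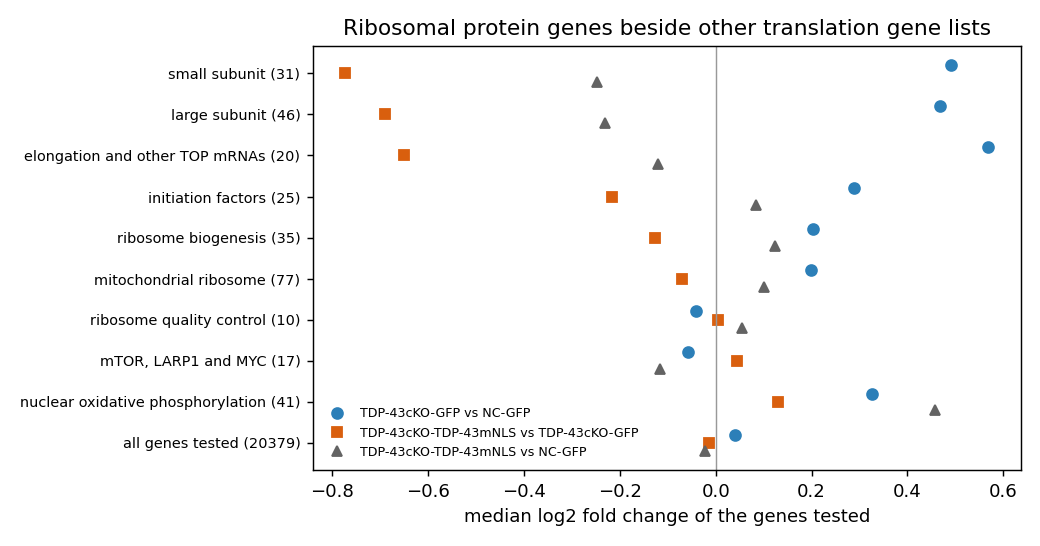
Median log2 fold change (horizontal axis) of the tested genes of each list, whose number stands in brackets, in the 3 comparisons (symbols). The 2 subunits and the TOP list lie between 0.47 and 0.57 in the first comparison and between -0.77 and -0.65 in the second, and all genes tested lie at 0.04 and -0.01.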

How the data were processed

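RNA of GFP-positive cells was sequenced in 10 libraries, made with a stranded SMART-Seq kit from 1 ng of total RNA per the labels' protocols. The deposited table gives estimated counts (expected counts, not normalized, 5.84% of them not whole) and TPM, both made by the authors. Per the submitters' processing notes the tool was DRAGEN and the build GRCm38/mm10. No version, annotation release or counting rule is given in the sources used here. Estimated counts were rounded and tested with the quasi-likelihood test of edgeR 4.0.16 (R 4.3.3): TMM scaling, group-wise low-count filter, 1 model of 3 groups, 20379 genes holding at least 99.83% of counts, adjustment by Benjamini-Hochberg over all of them, threshold 0.05, 7 residual degrees of freedom. TPM served for levels between genes and as a second scale for the members' share of each library. CPM used TMM-scaled totals. DESeq2 1.42.0 and limma 3.58.1 (voom) were alternatives. The steps were checked on simulated counts. No 2 replicates agreed within counting noise.

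Members, gene lists and comparisons were chosen with earlier results of these data known. Genes named are the members called in a comparison (8 of smallest p where more than 12 were called), the 4 of smallest p and the 3 highest and 3 lowest fold changes in each comparison, the 3 highest and lowest TPM, all copies, lists by role, and up to 3 of smallest p from each other list. Some of these are given only in counts. Ndufa7, Snhg14 and other single genes of the lists follow the same rule, and Pde4d was chosen after its place was seen. Sequences are from RefSeq start-site windows (GRCm38.p6) and GENCODE M21 transcripts, whose versioned gene identifiers may not be the authors' release. The exact 50-base matches describe sequence only and use no read. A few genes are not reported here by name, though they are counted.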

Additional observations from a re-analysis of the deposited data

Results flagged for a closer look

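Only the mNLS group, with 4 libraries, was large enough for Dixon's test of a single outlying library, which chance flags in about 1 of 20 groups. It was passed by 2 of the 29 values tested. Rpl26 stood at 274, 277 and 278 CPM in mNLS replicates 1 to 3 and at 330 in replicate 4, a gap of 0.929 of the range. Rpl10a stood at 35.5, 36.7 and 39.0 CPM in the same 3 and at 57.1 in replicate 4, a gap of 0.839. In TDP-43cKO-GFP, with 3 libraries, no such test was made, and its replicate 3 was the highest library for all 77 members.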

How the results depend on the processing

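Direction was stable for the family as a whole: the median kept its sign in every comparison under every setting and with every library left out. With each library left out in turn, the members called ran from 0 to 8 in TDP-43cKO-GFP against NC-GFP, from 3 to 72 in TDP-43cKO-TDP-43mNLS against TDP-43cKO-GFP and from 0 to 1 in TDP-43cKO-TDP-43mNLS against NC-GFP, and genes called in all from 61 to 755, 1178 to 3629 and 1217 to 2603. The medians ran from 0.20 to 0.60, from -0.80 to -0.41 and from -0.28 to -0.15, and the shares of counts from 1.121% to 1.208%, 1.38% to 1.76% and 1% to 1.076% in NC-GFP, TDP-43cKO-GFP and the mNLS group. In the first comparison DESeq2 called 1376 genes and 7 members, limma voom 1512 and 14, no low-count filter 2 members, a fit of only these 2 groups 754 genes, and pseudogene counts added to parents (chosen after seeing the data) 0 members. In the second, a fit of only 2 groups called 35 members. In the third DESeq2 called 3565 genes. Without mitochondrially encoded genes in the total the share of counts was 1.34% in NC-GFP and 1.19% in the mNLS group. The replicate numbers were not shown to pair samples: same-numbered libraries correlated at -0.145 to 0.059 in their deviations from group means. With the replicate block the first comparison called 176 genes and 0 members, the second 40 members and the third 1. The cause of these changes was not tested.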
